A study of Mus musculus with 50 samples.

Results

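The G2/M stem and progenitor cells were 318 mouse blood-forming cells with the highest levels of 5 mitotic genes among cells that carried stem cell transcripts. They were 10.0% of the 3171 cells in a transcript gate, 7.60% of the 4185 cells that passed quality filters and 7.45% of the 4271 cells used. The gate took cells with at least 1 count of Procr, which encodes the endothelial protein C receptor found on haematopoietic stem cells (HSCs), and at least 1 count of Mecom or Hlf, transcription factor genes needed for stem cell self-renewal. Within it, each cell was scored by the mean log2(CPM + 1), where CPM is a gene's share of the cell's counts scaled to 1e6, of Top2a, Birc5, Nusap1, Spc25 and Pbk, and the top 10% were taken. They were set against the 1585 gated cells below the median score, called low-score cells here, with the 1268 cells between as an intermediate class. The members were thus chosen from measured values, and the levels of the 5 score genes and of the gate genes describe the choice and support nothing else.

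The study followed blood formation after transplantation of single HSCs. Single HSCs of B6-Ly5.2 donors that carried the β-actin-GFP transgene, in which the β-actin promoter drives GFP, were given with whole marrow of B6-Ly5.2 mice to lethally irradiated B6-Ly5.2 recipients. The labels list 50 samples, 10 of them taken 1 month, 26 taken 4 months and 14 taken 12 months after transplantation, with marrow alone in 35 and marrow with spleen in 15. Cells were enriched for the receptor c-Kit, sorted singly by surface markers or by GFP, and sequenced by STRT-seq, a plate method that reads the 3′ ends of barcoded transcripts. No column ties a cell to a sample, so its month, tissue, sort gate and origin (donor, competitor or recipient) are not known here. The cells were treated as 1 pooled sample. No comparison between months or tissues was made, no test was run, and no p-value or standard error was computed. The spread is shown over sequencing libraries, which are not replicates of any group.

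In G2 a cell has copied its DNA and checks it before division. In mitosis, cyclin B with CDK1 and the Aurora and Polo kinases drive chromosome condensation, spindle assembly and attachment of kinetochores to microtubules, and the anaphase-promoting complex then destroys cyclin B and securin so that sister chromatids part. Most HSCs of an adult mouse are in the resting state G0, and division is most frequent among the progenitors that they give rise to.

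A G2/M cell held a median of 186048 counts over 5560 genes, and a low-score cell 124527 counts over 4051 genes. Mitochondrial transcripts made up a median of 1.39% of counts in G2/M cells and 1.70% in low-score cells. The 67 libraries held 1665151 to 26184494 counts each. Of 95 well names, 93 occurred in more than 1 library, but no full cell name was repeated among the 4271. G2/M cells came from 60 libraries, with 1 to 24 cells each and a median of 5. In the 57 libraries with at least 20 gated cells, the share of G2/M cells ranged from 0% to 35.3% with a median of 9.62%, and 3 of these libraries had none. Deeper cells weigh more where counts are summed. Detection was therefore also computed after every cell was thinned to 20000 counts, which left 305 G2/M cells and 1492 low-score cells.

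The score separated the classes by construction. The 3 lowest G2/M cells scored 3.71, 3.72 and 3.73, and the 3 highest cells left out scored 3.69, 3.65 and 3.63, so the border ran through a continuous range. The median score was 6.64 in G2/M cells and the highest 10.19, against a median of 0.83 over all gated cells, of which 1033 scored 0. All 5 score genes were counted in 204 G2/M cells, 4 of them in 82 cells and 3 in 32 cells. Top2a (topoisomerase II, which untangles sister chromatids) stood at 525 CPM in the summed counts of G2/M cells and 0.84 CPM in low-score cells. Birc5, which encodes survivin of the chromosomal passenger complex, stood at 586 CPM in G2/M cells and 0.93 CPM in low-score cells. Spc25, a subunit of the NDC80 kinetochore complex, stood at 242 CPM in G2/M cells and 0.41 CPM in low-score cells.

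Many of the G2/M cells also carried S-phase transcripts. A second score from the replication genes Mcm2, Mcm5, Mcm6, Cdc6 and Gins2 placed 146 of the 318 G2/M cells in the top 10% of gated cells (45.9%, exact 95% interval 40.3 to 51.6%, counting error only). The same held for 42 of the 1585 low-score cells (2.65%) and 130 of the 1268 cells between (10.3%). In contrast, 38 G2/M cells had an S-phase score at or under the median of all gated cells. Among the 318 cells the G2/M and S-phase scores were hardly related (Spearman's rho 0.086 across cells, which share libraries and depth). The part that depth plays in these shares was not tested.

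**Figure D1:**
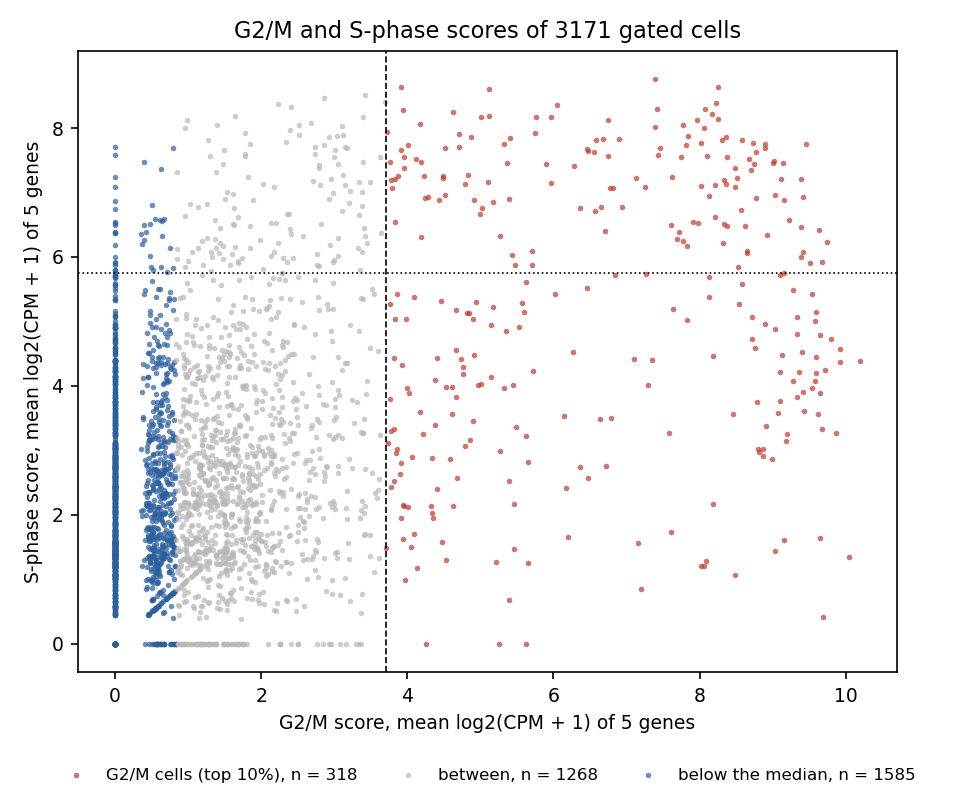
G2/M score (x axis) against S-phase score (y axis), both mean log2(CPM + 1) of 5 genes, for the 3171 gated cells, with 1 point per cell. The dashed line marks the lowest G2/M cell at 3.71 and the dotted line the top 10% by S-phase score; 146 of the 318 G2/M cells (red) lie above the dotted line and the rest spread down to 0.

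Beyond the score, the genes that stood higher in G2/M cells were led by the machinery of mitosis. Levels are CPM of summed counts and differences are log2 ratios of G2/M over low-score cells with 1 CPM added to each, which understates ratios of genes near 0. Of 7883 genes that reached a log2 level of 4 in either group, 605 (7.67%) were at least 2-fold higher and 155 (1.97%) at least 2-fold lower in G2/M cells, and the median over all of them was -0.01. In the list of mitotic kinases and entry factors, 21 of 24 genes were at least 2-fold higher and none lower, with a median of 4.16. This list's median was above 0 in all 43 libraries with 3 or more cells of each group, and ranged from 1.88 to 5.90 over them.

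Cdk1, the kinase that starts mitosis, stood at 409 CPM in G2/M cells and 16.8 CPM in low-score cells. Over the 43 libraries it ranged from 149 to 922 CPM with a median of 420 in G2/M cells, against 0 to 50.6 CPM with a median of 12.0 in low-score cells. Ccnb1 (cyclin B1, the partner of CDK1) stood at 163 CPM in G2/M cells and 6.34 CPM in low-score cells and was higher in 38 of 43 libraries. Plk1 (Polo-like kinase 1, which acts in mitotic entry, at centrosomes and at kinetochores) stood at 82.2 CPM in G2/M cells and 0.96 CPM in low-score cells. It ranged from 4.89 to 484 CPM over libraries in G2/M cells and from 0 to 16.5 CPM in low-score cells, and was higher in G2/M cells in all 43. The largest ratios of the list were those of Aurkb, the kinase of the chromosomal passenger complex, at 6.04 and Ccna2 (cyclin A2) at 5.93, both higher in 43 of 43 libraries. The smallest were those of Wee1, the kinase that holds CDK1 inactive, at 0.11 and Cdc25a, a phosphatase that activates cyclin-dependent kinases, at 0.78. Cdc25c, a phosphatase of the same family that activates CDK1, differed by 4.92.

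Kinetochore, spindle and cytokinesis genes followed the kinases. Of 41 kinetochore and centromere genes 37 were at least 2-fold higher, with a median of 3.82, led by Ska1 at 6.34 and Spc24 at 5.86, which tie kinetochores to microtubules. Of 25 spindle and kinesin genes 24 were at least 2-fold higher, with a median of 3.90, led by Pimreg at 6.83 and Hmmr at 6.23. Numa1, which anchors spindle poles in mitosis but is a nuclear protein of interphase, differed by 0.02. Of 13 cytokinesis genes 10 were at least 2-fold higher, with a median of 2.99. Shcbp1 led at 5.03, then Cep55, which acts at the midbody where daughter cells separate, at 4.86. Rhoa, a small GTPase with many uses outside division, differed by 0.25. No gene of these 3 lists was at least 2-fold lower, and the list medians were above 0 in 43, 43 and 41 of the 43 libraries.

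The anaphase-promoting complex divided between its regulators and its core. Ube2c, the ubiquitin-conjugating enzyme of the complex, stood at 491 CPM in G2/M cells and 2.86 CPM in low-score cells, a log2 ratio of 6.99. Cdc20, the activator used in mitosis, stood at 175 CPM in G2/M cells and 6.69 CPM in low-score cells. Over libraries Cdc20 ranged from 4.04 to 785 CPM with a median of 175 in G2/M cells, against 0 to 58.7 CPM with a median of 6.08 in low-score cells. Across the whole list the median was 0.34, with 6 of 19 genes at least 2-fold higher. Pttg1, the gene of securin, which the complex destroys at anaphase, was the lowest of the list at -0.26, at 105 CPM in G2/M cells and 126 CPM in low-score cells, and was lower in G2/M cells in 33 of 43 libraries.

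Genes that shape chromosomes and the nucleus were higher by smaller ratios. Of 23 condensin and chromosome structure genes 16 were at least 2-fold higher, with a median of 1.67. Mki67, which coats mitotic chromosomes and is widely used as a marker of cycling cells, stood at 269 CPM in G2/M cells and 4.30 CPM in low-score cells. Ncaph, a condensin I subunit, differed by 4.72, whereas Smc1a of cohesin differed by 0.40 and Top2b, the topoisomerase II that non-dividing cells also express, by 0.35. Of 9 tubulins 7 were at least 2-fold higher, and Tuba1b reached 1965 CPM in G2/M cells and 421 CPM in low-score cells. Of 14 nuclear envelope genes 9 were at least 2-fold higher, led by Lmnb1 (lamin B1) at 2.81.

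The promoters of mitotic genes are known to carry the CHR element, which the DREAM and MuvB complexes bind, often with CCAAT boxes, the sites of NF-Y. Promoters here are RefSeq windows of GRCm38.p6, 250 bases before to 50 after the start site. They were searched on both strands for TTTGAA (CHR), CCAAT, and the E2F motifs TTTGGCGC, TTTCGCGC, TTTCCCGC and TTTGCCGC, a search chosen after the expression values had been seen. The mitotic genes counted here are the kinase, kinetochore, spindle and cytokinesis lists with the score genes, 116 together, of which 93 had an entry. The score genes chose the members, and 4 of the 5 had an entry. TTTGAA occurred in 54.8% of the 93 mitotic genes, against 15.0% of 40 DNA replication genes and 20.2% of all 27025 genes with an entry. TTTGAA and CCAAT together occurred in 43.0% of the mitotic genes, 10.0% of the replication genes and 7.97% of all genes. CCAAT alone was about as frequent in both sets, in 67.7% of the mitotic genes and 62.5% of the replication genes, against 41.1% of all genes. An E2F motif occurred in 9.68% of the mitotic genes, 45.0% of the replication genes and 2.60% of all genes. Over the 6282 genes tested for expression that had an entry, the shares were 14.6% for TTTGAA, 43.3% for CCAAT, 6.18% for both and 5.36% for an E2F motif. Of the 605 genes at least 2-fold higher in G2/M cells 452 had an entry. Their shares, in the same order, were 28.3%, 57.3%, 18.6% and 13.3%. Of the 155 genes at least 2-fold lower 121 had an entry, with shares of 19.0%, 38.8%, 4.96% and 0.826%. A match is only a run of letters and does not show binding.

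The windows below show a pair of score genes and 3 mitotic regulators named above, and Mcm6 as a replication gene for contrast. Capitals mark TTTGAA and CCAAT, or their reverse complements TTCAAA and ATTGG, in the first 5, and the E2F motifs in Mcm6. CCAAT was not marked in Mcm6, whose window holds its reverse complement ATTGG in lower case. All are printed 5′ to 3′ on the strand of the gene: Top2a at chr11:99024140-99024439 (minus strand), Spc25 at chr2:69206164-69206463 (minus), Ccnb2 at chr9:70421505-70421804 (minus), Cdc20 at chr4:118437294-118437593 (minus), Plk1 at chr7:122159185-122159484 (plus) and Mcm6 at chr1:128359656-128359955 (minus).
Top2a: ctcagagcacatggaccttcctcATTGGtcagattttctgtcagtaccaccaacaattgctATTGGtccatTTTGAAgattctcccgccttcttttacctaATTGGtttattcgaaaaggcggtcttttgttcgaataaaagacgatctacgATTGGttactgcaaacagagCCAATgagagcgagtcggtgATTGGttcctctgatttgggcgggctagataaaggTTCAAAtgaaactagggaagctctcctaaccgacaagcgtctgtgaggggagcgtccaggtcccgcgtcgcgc
Spc25: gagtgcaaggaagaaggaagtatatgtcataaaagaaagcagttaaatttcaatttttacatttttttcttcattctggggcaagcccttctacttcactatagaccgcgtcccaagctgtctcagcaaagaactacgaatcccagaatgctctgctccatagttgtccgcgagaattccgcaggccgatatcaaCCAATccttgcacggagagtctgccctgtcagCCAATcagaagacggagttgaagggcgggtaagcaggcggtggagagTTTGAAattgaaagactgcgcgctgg
Ccnb2: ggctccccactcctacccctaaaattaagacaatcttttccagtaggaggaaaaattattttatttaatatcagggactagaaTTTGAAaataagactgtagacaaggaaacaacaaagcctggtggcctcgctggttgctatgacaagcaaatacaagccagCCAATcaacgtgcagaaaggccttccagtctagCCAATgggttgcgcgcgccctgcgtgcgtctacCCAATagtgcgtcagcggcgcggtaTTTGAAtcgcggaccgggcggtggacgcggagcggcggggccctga
Cdc20: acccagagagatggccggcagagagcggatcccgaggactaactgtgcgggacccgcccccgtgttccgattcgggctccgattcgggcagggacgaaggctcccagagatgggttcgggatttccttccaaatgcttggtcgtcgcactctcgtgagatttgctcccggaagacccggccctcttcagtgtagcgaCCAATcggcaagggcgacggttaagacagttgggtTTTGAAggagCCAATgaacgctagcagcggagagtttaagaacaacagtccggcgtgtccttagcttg
Plk1: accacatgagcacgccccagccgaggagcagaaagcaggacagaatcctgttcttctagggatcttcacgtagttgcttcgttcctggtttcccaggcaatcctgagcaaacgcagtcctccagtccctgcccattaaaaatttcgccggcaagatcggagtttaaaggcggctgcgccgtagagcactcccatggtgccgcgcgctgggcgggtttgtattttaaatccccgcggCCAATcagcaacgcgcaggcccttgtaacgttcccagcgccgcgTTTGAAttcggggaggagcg
Mcm6: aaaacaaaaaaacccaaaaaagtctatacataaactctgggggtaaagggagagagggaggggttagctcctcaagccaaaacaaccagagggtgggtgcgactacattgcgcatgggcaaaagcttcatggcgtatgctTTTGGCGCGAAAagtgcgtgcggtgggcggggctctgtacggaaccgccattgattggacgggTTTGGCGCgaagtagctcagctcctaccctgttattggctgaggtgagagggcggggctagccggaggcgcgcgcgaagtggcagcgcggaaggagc
With the first transcribed base counted as 0, TTTGAA began at base 24 in Spc25, 4 in Ccnb2, -18 in Cdc20 and 30 in Plk1, and its reverse complement began at base -23 in Top2a. Further TTTGAA matches began at bases -179 in Top2a and -167 in Ccnb2. The Top2a window held 6 CCAAT matches and the Ccnb2 window 3. In Mcm6, 3 E2F matches were found, at bases -110, -106 and -47, and the matches at -110 and -106 overlapped on opposite strands. Ccnb2 (cyclin B2) stood at 482 CPM in G2/M cells and 8.27 CPM in low-score cells, a log2 ratio of 5.70. Mcm6 (a subunit of the replicative helicase) stood at 345 CPM in G2/M cells and 131 CPM in low-score cells, a log2 ratio of 1.39.

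DNA replication genes were also higher in G2/M cells. Of 46 genes 40 were at least 2-fold higher and none lower, with a median of 2.13. The list's median was above 0 in 42 of 43 libraries. Mcm5, another helicase subunit, stood at 225 CPM in G2/M cells and 35.2 CPM in low-score cells. Its range over libraries was 35.1 to 440 CPM in G2/M cells and 5.39 to 132 CPM in low-score cells; the ranges overlapped, yet it was higher in G2/M cells in all 43. Pcna, the sliding clamp of the replication fork, stood at 416 CPM in G2/M cells and 96.9 CPM in low-score cells, and was higher in 42 of 43. The largest ratios were those of Rrm2 at 5.46 and Tk1 at 5.18, enzymes that supply deoxynucleotides, and the smallest that of Pole (DNA polymerase epsilon) at 0.25. Of 19 homologous recombination and Fanconi repair genes 15 were at least 2-fold higher and none lower, with a median of 2.47.

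Cells with a high S-phase score, called S-phase cells here for that score alone, served as a closer comparison. Whether they were in S phase was not tested. These were 286 cells, the top 10% by S-phase score of the gated cells outside the G2/M group, with a median of 188327 counts, near that of G2/M cells. Of 7723 genes 383 (4.96%) were at least 2-fold higher and 19 (0.246%) at least 2-fold lower in G2/M cells. The median was 3.25 for mitotic kinases, 3.25 for spindle genes, 2.53 for kinetochore genes and 2.35 for cytokinesis genes, but 0.29 for DNA replication genes. Plk1 stood at 82.2 CPM in G2/M cells and 1.40 CPM in S-phase cells, and Cenpf, a kinetochore protein that accumulates in G2, at 233 CPM in G2/M cells and 3.65 CPM in S-phase cells. Rrm2 stood at 221 CPM in G2/M cells, 23.5 CPM in S-phase cells and 4.06 CPM in low-score cells. Mcm2 (165 CPM in G2/M cells and 233 CPM in S-phase cells) and Mcm5 (225 CPM in G2/M cells and 230 CPM in S-phase cells) were among the genes that chose the S-phase cells and are given as a description.

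Histone genes also differed between G2/M cells and the S-phase cells as chosen here. That choice used replication genes and left out every G2/M cell, among them the 146 in the top 10% of gated cells by S-phase score. Whether the S-phase cells were in S phase, or cover the whole of it, was not tested. Of 18 histone genes 10 were at least 2-fold higher than in low-score cells and none lower, with a median of 2.02 against low-score cells and 1.66 against S-phase cells. Hist1h2ap stood at 1056 CPM in G2/M cells and 39.0 CPM in low-score cells. In S-phase cells it stood at 40.3 CPM, near the level of low-score cells. Hist1h2ae differed from low-score cells by 4.19. Replication-dependent histone transcripts normally lack a poly(A) tail, and near-identical copies in the gene clusters can share reads, so levels of single histone genes are uncertain. H2afz, the gene of a histone variant made outside S phase as well, stood at 1135 CPM in G2/M cells and 326 CPM in low-score cells, and at 559 CPM in S-phase cells.

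Within the 318 cells, mitotic and replication genes followed different courses along the score. The members were ordered by score into the lowest, middle and highest 106. In the order low-score cells, cells between, and the lowest, middle and highest 106, Plk1 stood at 0.96, 1.33, 10.5, 64.3 and 140 CPM. Aurka (Aurora kinase A, of centrosomes and spindle poles) stood at 4.37, 5.49, 13.8, 69.5 and 217 CPM. Mcm5 stood at 35.2, 68.9, 241, 258 and 190 CPM, and Ccne1 (cyclin E1, of the entry into S phase) at 1.65, 3.01, 25.7, 51.6 and 20.5 CPM. Plk1 and Aurka were thus highest in the highest-scoring cells, while Mcm5 and Ccne1 were highest in the middle class. Cells in the top 10% by S-phase score numbered 38, 58 and 50 of the 106 in the lowest, middle and highest class. Across the 318 cells the score correlated with the mean log2 level of the mitotic kinase list (Spearman's rho 0.85) more than with that of the DNA replication list (0.27). With log10 counts per cell it correlated at 0.28. The score chose and ordered these cells, so the rise of mitotic genes along it describes that choice and supports nothing else. The median depth in the same 3 classes was 121418, 195778 and 288296 counts, and its part in these courses was not tested.

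**Figure D2:**
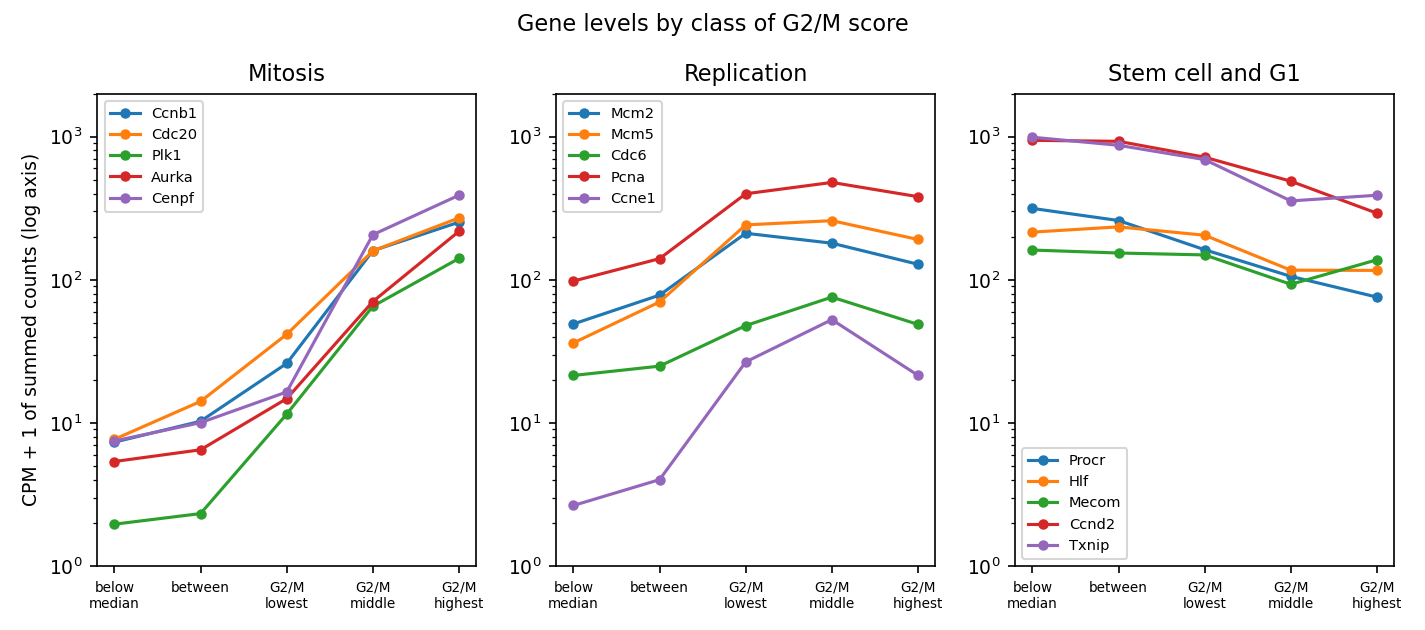
Summed level (CPM + 1, log axis) of 15 genes in low-score cells, the cells between and the lowest, middle and highest 106 G2/M cells by score, with 1 line per gene. Mitotic genes such as Plk1 (140 CPM in the highest class) climb to the right, replication genes such as Mcm5 level off at 241, 258 and 190 CPM, and Procr and Ccnd2 decline.

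Stem cell transcripts were lower but present. Of 40 HSC identity genes 35 had a log2 ratio below 0 and 4 were at least 2-fold lower; none was at least 2-fold higher. The median was -0.44, and was below 0 in 42 of 43 libraries. Rora was lowest at -1.54, then Mllt3, a regulator of stem cell maintenance, at -1.20, with 110 CPM in G2/M cells and 253 CPM in low-score cells. Itga2b, an integrin of stem cells and megakaryocytes, was the highest at 0.38. Lists with pooled medians near 0 also lay below 0 in most of the 43 libraries. Apoptosis genes (-0.03) did so in 31, and adhesion and homing genes (-0.02) in 33. Among 20 genes known to be raised in HSCs of old mice, the median was -0.52 and 5 were at least 2-fold lower, among them the gate gene Procr. Over the 19 others the median was -0.43 and 4 were at least 2-fold lower. Sult1a1, a sulfotransferase, led them, with 63.8 CPM in G2/M cells and 332 CPM in low-score cells.

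The gate genes, given as a description since the gate required Procr and either Mecom or Hlf, differed by unequal ratios. Procr stood at 107 CPM in G2/M cells and 314 CPM in low-score cells, a log2 ratio of -1.55. Over libraries Procr ranged from 17.1 to 287 CPM with a median of 102 in G2/M cells, against 107 to 658 CPM with a median of 316 in low-score cells. It was lower in G2/M cells in 41 of 43 libraries. Hlf stood at 138 CPM in G2/M cells and 214 CPM in low-score cells, and Mecom at 125 CPM in G2/M cells and 160 CPM in low-score cells. Both were lower in G2/M cells in 32 of 43 libraries. Along the classes from low-score cells to the highest 106, Procr stood at 314, 258, 161, 105 and 74.6 CPM, while Mecom stood at 160, 153, 148, 92.0 and 137 CPM. After thinning to 20000 counts, Procr was found in 68.5% of G2/M cells and 87.2% of low-score cells, and Mecom in 78.0% of G2/M cells and 77.3% of low-score cells.

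For some surface genes that divide HSCs from progenitors, summed levels, libraries and thinned detection differed in direction. Slamf1 (CD150, a marker of HSCs) stood at 25.9 CPM in G2/M cells and 40.1 CPM in low-score cells, and was lower in G2/M cells in 34 libraries. Thinned, Slamf1 was found in 17.4% of G2/M cells and 22.3% of low-score cells. Cd48, which is gained as HSCs become progenitors, stood at 41.7 CPM in G2/M cells and 11.0 CPM in low-score cells, but was higher in only 26 of 43 libraries. Thinned, Cd48 was found in 23.3% of G2/M cells and 6.57% of low-score cells. Cd34 (203 CPM in G2/M cells and 199 CPM in low-score cells) and Flt3 (36.5 CPM in G2/M cells and 35.2 CPM in low-score cells), genes of multipotent progenitors, had log2 ratios of 0.03 and 0.05. They were lower in G2/M cells in 30 and 26 of 43 libraries. Thinned, Cd34 was found in 78.7% of G2/M cells and 68.2% of low-score cells, and Flt3 in 32.5% of G2/M cells and 22.7% of low-score cells. Kit, the receptor used for enrichment, differed by -0.29 and, thinned, was found in 75.1% of G2/M cells and 71.2% of low-score cells.

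**Figure D3:**
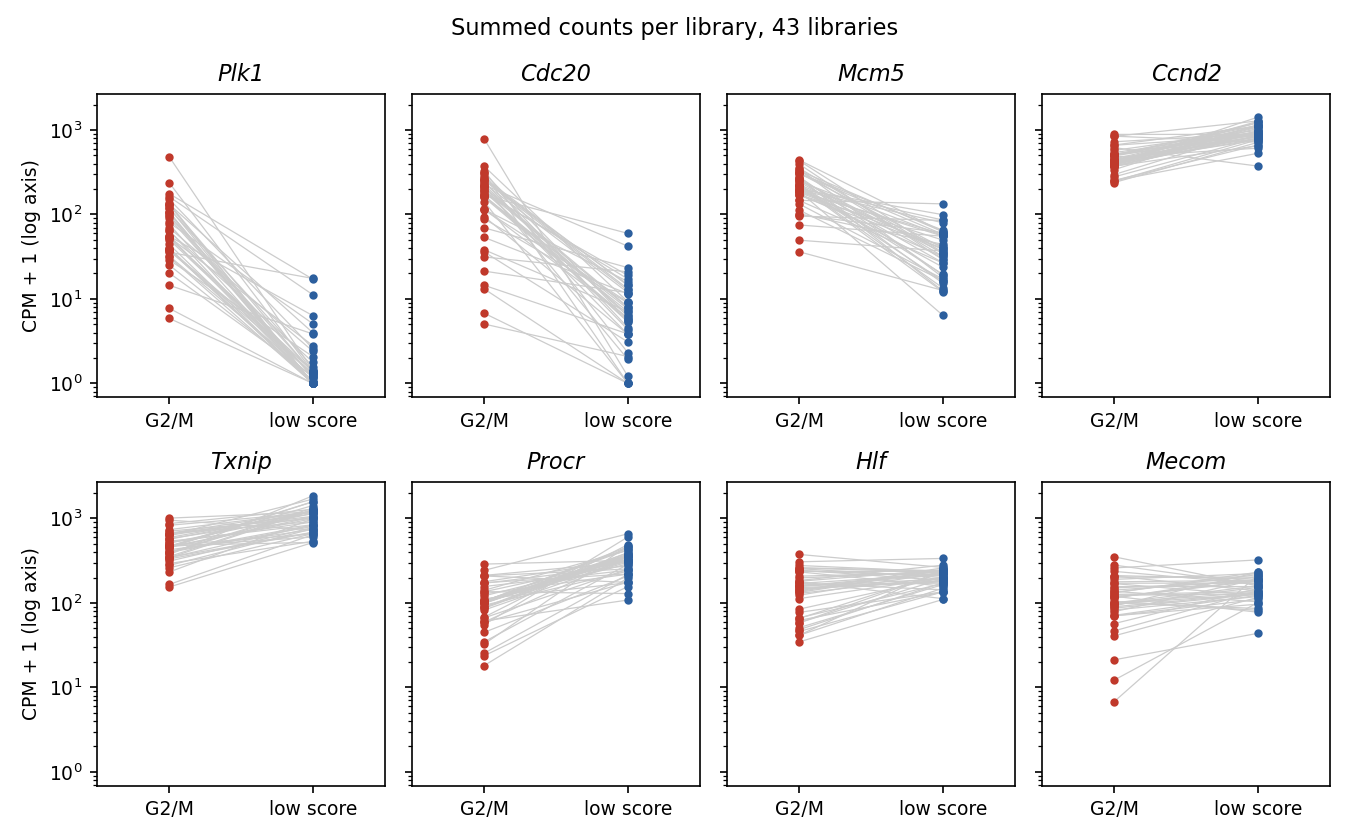
Summed level (CPM + 1, log axis) of 8 genes in the same 43 libraries; each line joins G2/M cells (left) and low-score cells (right) of 1 library. Plk1, Cdc20 and Mcm5 were higher in G2/M cells in all 43 libraries, Txnip was lower in 42, Ccnd2 and Procr in 41, and Hlf and Mecom in 32.

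D-type cyclins, which carry cells through G1, were lower while cyclin E genes were higher. Ccnd2 stood at 464 CPM in G2/M cells and 941 CPM in low-score cells, a log2 ratio of -1.02. Over libraries it ranged from 238 to 885 CPM with a median of 429 in G2/M cells, against 373 to 1419 CPM with a median of 907 in low-score cells, and it was lower in G2/M cells in 41 of 43. Along the classes of score Ccnd2 stood at 941, 926, 717, 487 and 291 CPM, and it stood at 898 CPM in S-phase cells. Ccnd3 and Ccnd1 differed by -0.57 and -0.55. Ccne1 and Ccne2 differed by 3.64 and 3.67, and the E2F factors E2f8 and E2f2 by 4.45 and 3.92. In all, 8 of 17 G1 cyclin and E2F genes were at least 2-fold higher and 1, Ccnd2, at least 2-fold lower. Without lineage-marked cells the ratios were -0.94 for Ccnd2, 3.01 for Ccne1 and 3.14 for E2f2. Cdk6, the partner of D-type cyclins in blood cells, stood at 212 CPM in G2/M cells and 125 CPM in low-score cells, and was higher in 34 of 43 libraries.

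Of 6 genes tested in the list of cyclin-dependent kinase inhibitors and pocket proteins, 5 had ratios above 0, 2 were at least 2-fold higher and none at least 2-fold lower. The median was 0.59, above 0 in 36 of 43 libraries. Cdkn2d (p19) differed by 0.54. Cdkn1a (p21) and Cdkn1b (p27) differed by 0.61 and 0.58 but were higher in only 22 and 23 of 43 libraries. Cdkn2c (p18, which restrains CDK4 and CDK6) stood at 34.3 CPM in G2/M cells and 62.6 CPM in low-score cells, and was lower in 30 libraries. Cdkn1c (p57), a known gene of quiescent HSCs, stood at 8.58 CPM in G2/M cells and 11.0 CPM in low-score cells, under the level filter. Cdkn3, a phosphatase that acts on CDK1 and CDK2, stood at 109 CPM in G2/M cells and 1.71 CPM in low-score cells. Cdkn3 and the pocket protein gene Rbl1 (p107), at 1.80, were the pair at least 2-fold higher. Of 18 quiescence genes 2 were at least 2-fold lower, none was at least 2-fold higher, and the median was -0.41. Those 2 were Txnip, a brake on glucose uptake linked to HSC quiescence, and Pdzk1ip1, at -1.12 and -1.11. Txnip ranged from 153 to 1008 CPM with a median of 465 in G2/M cells over libraries, against 518 to 1855 CPM with a median of 1003 in low-score cells.

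Among metabolic genes, those of nucleotide synthesis had the largest ratios, and the other lists differed by less. Of 74 nuclear-encoded oxidative phosphorylation genes 64 had a ratio above 0, none reached 2-fold either way, and the median was 0.24, above 0 in 38 of 43 libraries. Cycs (cytochrome c) led, with 200.1 CPM in G2/M cells and 102 CPM in low-score cells. All 11 mitochondrially encoded genes had ratios below 0, with a median of -0.21. Of 75 cytosolic ribosomal protein genes 67 had ratios below 0, with a median of -0.25, below 0 in 39 of 43 libraries, and none reached 2-fold. Their summed level per cell had a median of 187100 CPM in G2/M cells and 219071 CPM in low-score cells. Nucleotide synthesis genes had a median of 0.72, with 9 of 24 at least 2-fold higher, led by Rrm2 and by Tyms (thymidylate synthase) at 3.29. Of 19 glycolysis genes 2 were at least 2-fold lower, Aldoc at -1.51 and Aldoa at -1.09, and the median was -0.17. Both encode aldolase, and Tpi1, the next enzyme of the pathway, was the highest at 0.56.

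Growth genes driven by MYC were mixed. Across 35 ribosome biogenesis and MYC-driven genes the median was 0.24, above 0 in 27 libraries and below 0 in 16. Cad, of pyrimidine synthesis, and Ran, of nuclear transport and the spindle, differed by 1.33 and 1.12. The factors themselves were lower: Mycn stood at 75.6 CPM in G2/M cells and 175 CPM in low-score cells, and Myc at 228 CPM in G2/M cells and 334 CPM in low-score cells.

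The lists of immediate early, interferon response, MHC class I and inflammation genes had medians below 0, though few of their genes reached 2-fold. Of 17 immediate early genes 16 had ratios below 0 and 4 were at least 2-fold lower, with a median of -0.78, below 0 in 41 of 43 libraries. Fos, a subunit of AP-1, stood at 509 CPM in G2/M cells and 1103 CPM in low-score cells, and Socs3, a cytokine feedback inhibitor, at 10.1 CPM in G2/M cells and 26.8 CPM in low-score cells. Of 39 interferon response genes 32 had ratios below 0. Their median was -0.38, below 0 in 34 libraries, against 33 for adhesion and homing genes (median -0.02). Ifi44 and Ifit1 were lowest at -1.64 and -1.15, and Rsad2 highest at 0.98; without the lineage-marked cells described further on, Rsad2 had a ratio of -0.46. In all, 2 of the 39 were at least 2-fold lower and none at least 2-fold higher. Of 17 MHC class I genes 13 had ratios below 0 and none reached 2-fold, with a median of -0.19; B2m stood at 7557 CPM in G2/M cells and 10498 CPM in low-score cells, and was lower in 42 of 43 libraries. Among 15 inflammation and NF-kB genes 4 were at least 2-fold lower and 1 at least 2-fold higher, with a median of -0.54. The higher gene was Il1b, of which 38.2% of the counts in G2/M cells came from 2 cells; its ratio was 0.36 without lineage-marked cells.

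Autophagy and lysosome genes had a median of -0.23 over 28 genes, below 0 in 42 of 43 libraries. Ctsl, a lysosomal protease, was at least 2-fold lower, with 48.2 CPM in G2/M cells and 147 CPM in low-score cells, and Gabarapl1, of autophagosomes, differed by -0.87. Of 15 p53 target genes 1 was at least 2-fold higher (Gadd45a, at 1.36, and at 0.29 without lineage-marked cells) and 1 at least 2-fold lower (Plk2, at -1.72), with a median of -0.33. Apoptosis genes centred on 0, with a median of -0.03 over 17 genes and none at 2-fold.

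**Figure D4:**
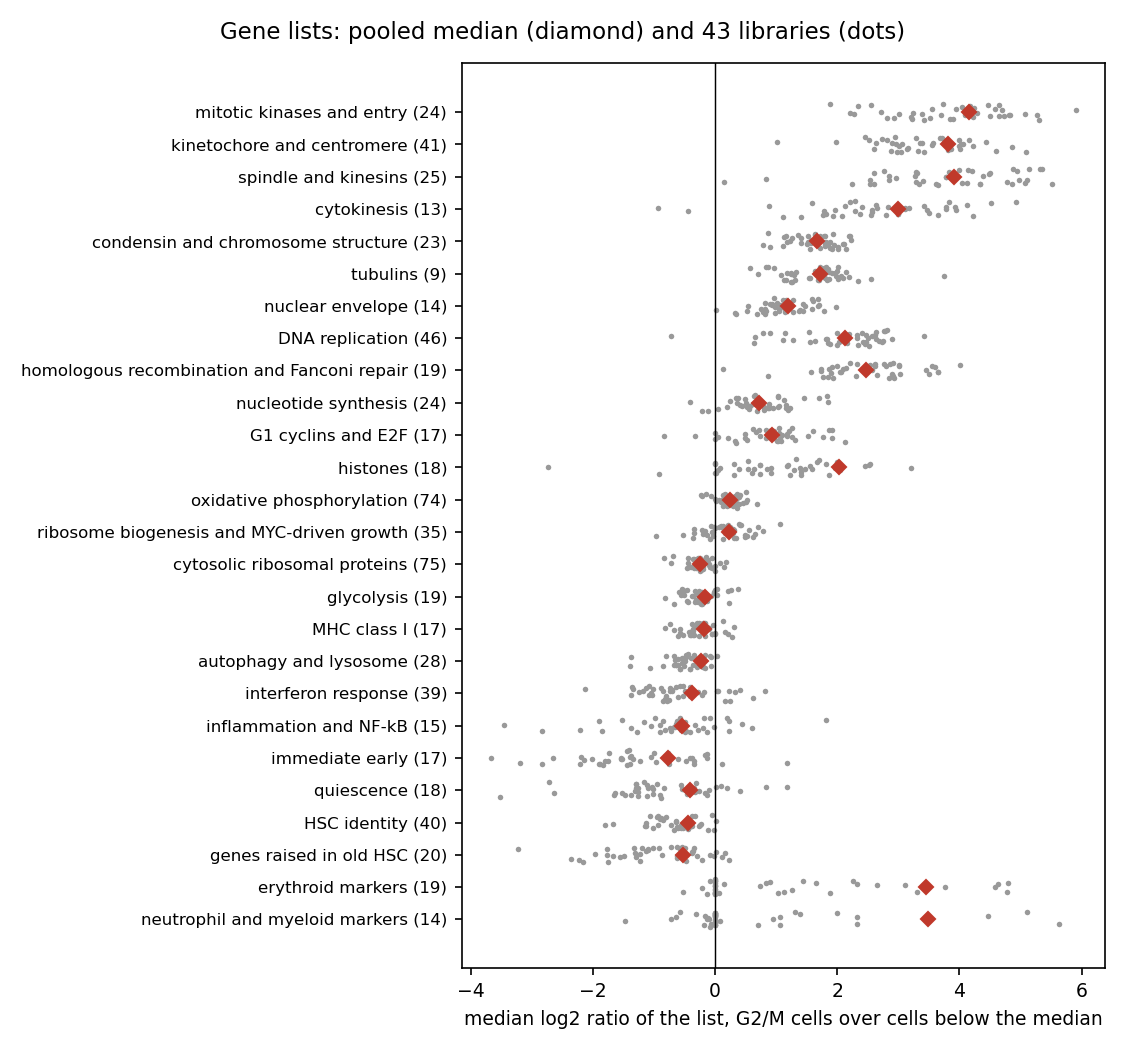
Median log2 ratio (x axis, G2/M over low-score cells) of each gene list, with the number of genes tested in brackets; red diamonds are pooled cells and grey dots the 43 libraries. Mitotic, replication and repair lists lie right of 0 in nearly every library, HSC identity and immediate early genes left of 0, and the erythroid and neutrophil diamonds at 3.46 and 3.49 stand far from most of their dots.

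Outside the lists, the largest ratios also belonged largely to genes of dividing cells. Pclaf, a PCNA-binding factor, stood at 563 CPM in G2/M cells and 2.88 CPM in low-score cells and was higher in all 43 libraries. Esco2, which acetylates cohesin, differed by 6.01, Cdca3 by 5.92 and Neil3, a DNA glycosylase, by 5.90. Mxd3, Sapcd2, Ankle1, Hist1h2ao, Tcf19 and Asf1b completed the 10 largest, with 5.39 for Mxd3 and 4.75 for Asf1b, a histone chaperone. The 10 lowest were Batf2, Gm5148, Upp1, Ctsf, Trib3, Cpne8, Unc45b, Tcp11l2, Ltb and Dlgap4. Batf2, a transcription factor of the AP-1 family, stood at 6.35 CPM in G2/M cells and 30.4 CPM in low-score cells. Upp1 (uridine phosphorylase, which breaks down uridine) stood at 20.3 CPM in G2/M cells and 78.0 CPM in low-score cells and was lower in 42 of 43 libraries. Tcp11l2 differed by -1.59, and by -2.40 without lineage-marked cells. Ltb, the lymphotoxin beta gene, stood at 95.5 CPM in G2/M cells and 287 CPM in low-score cells.

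Markers of other blood lineages were carried by a minority of G2/M cells. In 54 of the 318 (17.0%, exact 95% interval 13.0 to 21.6%) at least 1 list of another cell type's markers made up 1% or more of all counts, against 54 of 1585 low-score cells (3.41%). Erythroid markers reached this level in 43 G2/M cells (13.5%) and 23 low-score cells (1.45%), and neutrophil and myeloid markers in 30 G2/M cells (9.43%) and 8 low-score cells (0.505%). Both lists did so in 23 G2/M cells. Of the 54 such G2/M cells 27 came from libraries Lib52, Lib54, Lib55 and Lib116, which held 39 G2/M cells in all. These marked cells had a median of 159198 counts over 6551 genes, and the other 264 G2/M cells 194501 counts over 5396 genes. Every marker of the erythroid and neutrophil lists in the matrix (19 and 18 genes) was counted in both G2/M and low-score cells. Whether a cell made these transcripts itself was not tested.

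In pooled counts 17 of 19 erythroid markers and 13 of 14 neutrophil and myeloid markers were at least 2-fold higher, with medians of 3.46 and 3.49. Over libraries the erythroid median was above 0 in 23 and below 0 in 4, with a median of 0.15, and the neutrophil median above 0 in 13 and below 0 in 12, with a median of 0.00. The summed erythroid level per cell had a median of 2147 CPM in G2/M cells and 1894 CPM in low-score cells, and the summed neutrophil level 547 CPM in G2/M cells and 857 CPM in low-score cells. Without the marked cells of both groups, 9 of the same 19 erythroid genes were at least 2-fold higher, with a median of 0.45, and 3 of the same 14 neutrophil genes, with a median of 0.34. Among the 11 and 7 of them that still reached the level filter, the medians were 0.14 and 0.35. In the same cells Plk1 differed by 5.48, Mcm5 by 2.72, Ccnd2 by -0.94 and Procr by -1.51. Of the 3 gate genes, marked G2/M cells carried 130 CPM of Hlf, 90.2 CPM of Procr and 71.7 CPM of Mecom. The other G2/M cells carried 140 CPM of Hlf, 110 CPM of Procr and 136 CPM of Mecom.

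Some single lineage genes were higher in the summed counts of unmarked G2/M cells too. Car1, a carbonic anhydrase of early erythroid cells, stood at 84.8 CPM in unmarked G2/M cells and 1.54 CPM in unmarked low-score cells, but was higher in 15 and lower in 6 of 41 libraries. Ctsg and Mpo, of neutrophil granules, had ratios of 2.35 and 1.38 among unmarked cells. Epor, the erythropoietin receptor, stood at 15.2 CPM in unmarked G2/M cells and 4.42 CPM in unmarked low-score cells, and was higher in 27 and lower in 9 of 41 libraries. Gata1, the erythroid and megakaryocyte transcription factor, stood at 27.9 CPM in unmarked G2/M cells and 4.99 CPM in unmarked low-score cells, but was higher in 19 and lower in 16 of 41 libraries. Cd48 differed by 1.64 among unmarked cells, and was higher in 21 and lower in 17 of 41 libraries. Epor was counted in 28.8% of unmarked G2/M cells and 6.14% of unmarked low-score cells, and Cd48 in 36.4% of unmarked G2/M cells and 11.8% of unmarked low-score cells; the greater depth of G2/M cells bears on both shares and its part was not tested.

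**Figure D5:**
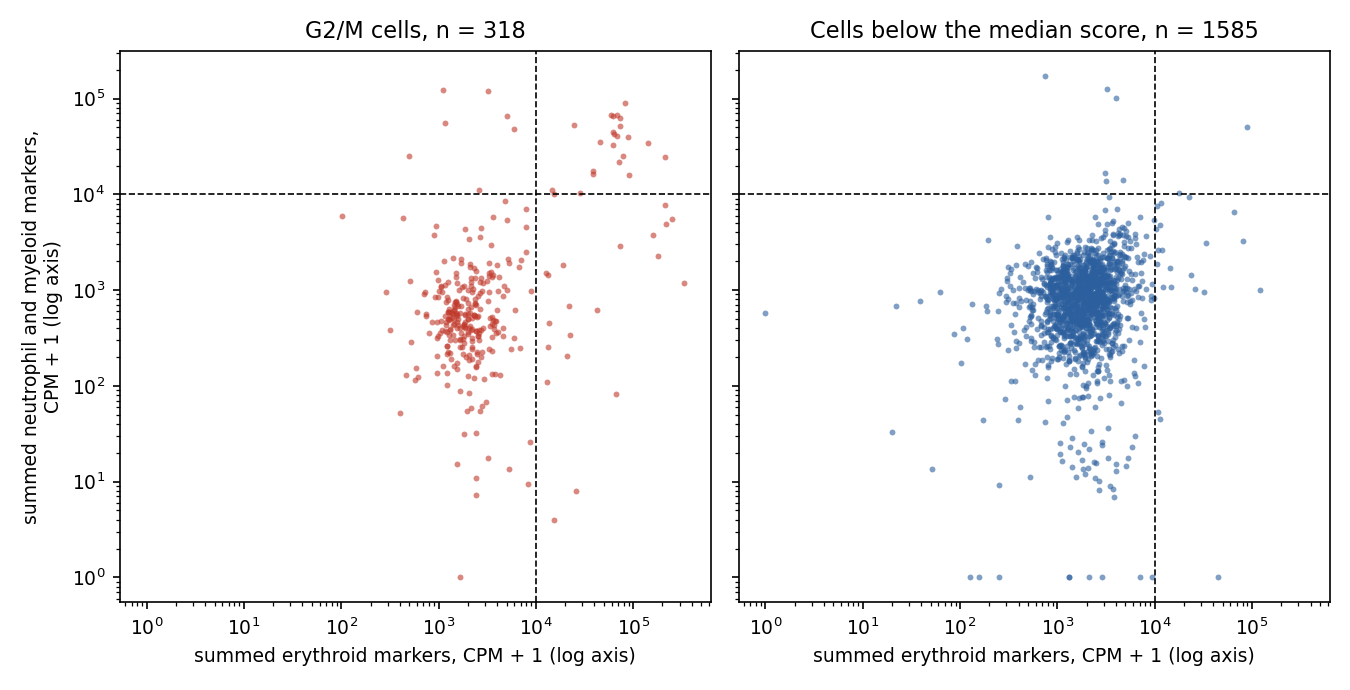
Summed erythroid markers (x axis) against summed neutrophil and myeloid markers (y axis), both CPM + 1 on log axes, for the 318 G2/M cells (left) and the 1585 low-score cells (right), with 1 point per cell. Dashed lines mark 10000 CPM, or 1% of counts; 43 G2/M cells lie beyond the erythroid line and 30 beyond the neutrophil line.

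Cells with as high a G2/M score also occurred outside the gate, 190 of 1014 cells (18.7%, exact 95% interval 16.4 to 21.3%). Of 7853 genes 366 (4.66%) were at least 2-fold higher and 297 (3.78%) at least 2-fold lower in the gated G2/M cells than in these. Cell cycle lists lay near 0, with medians of 0.10 for mitotic kinases, 0.19 for kinetochore genes and -0.02 for DNA replication genes. The gate itself selected for stem cell transcripts, so the following values describe the choice. The median was 0.64 for HSC identity genes, a list that holds no gate gene, and 1.25 for the 19 genes raised in old HSCs other than Procr. Interferon response genes had a median of 0.65. Esam, an endothelial adhesion gene of HSCs, stood at 133 CPM in gated G2/M cells and 41.4 CPM in cells outside. Progenitor genes had a median of -0.67 and neutrophil markers -1.51, with Cd48 at 41.7 CPM in gated G2/M cells and 181 CPM in cells outside. Another lineage's markers reached 1% of counts in 66 of the 190 (34.7%).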

How the data were processed

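The authors deposited 1 matrix of raw, whole-number counts for each gene in each cell. The tools were HTSeq 0.9.1, HISAT2 2.1.0 and Trimmomatic 0.36 on the build GRCm38, per the submitters' processing notes. Whether the authors counted reads or molecules is not given in those notes. Counts of amplified reads are not independent molecules. The exact binomial intervals (95%) were computed on numbers of cells. They cover counting error only and leave out that cells share libraries.

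Of 4288 cells, the 17 columns of 1 library were not used. Of the other 4271, 76 had under 1000 genes counted and 10 more had over 10% mitochondrial counts. Cells were sorted singly and no doublet caller was run. Counts were summed per group of cells, scaled to CPM and compared as log2 ratios with 1 CPM added, for genes at a log2 level of 4 (15 CPM) or more in either group. Thinning drew 20000 counts per cell without replacement. No sample could be assigned to a cell, so the planned tests between months were not run and all values are descriptions.

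The members, the 43 lists (1051 genes, 1038 in the matrix) and the promoter search were chosen with earlier results of these data known. Named genes are those of the lists, a set of anchor genes, and outside the lists the 10 largest ratios each way with the pooled direction in at least 80% of libraries. Genes outside this rule are named in the closing section as chosen after their values were seen. Computations used Python 3.11.15 with numpy 2.4.6, scipy 1.17.1, pandas 2.3.3 and matplotlib 3.10.9, and were tested on simulated counts with known ratios.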

Additional observations from a re-analysis of the deposited data

How the results depend on the processing

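No paired analysis was possible because no column of the matrix carries a sample or replicate number. Over 23 alternatives, 28 of the 43 lists gave 644 medians, of which 628 moved by less than 1 SD over libraries, 16 moved further and none reversed. The remaining lists were left out, and some of them changed sign over libraries. Progenitor genes had a pooled median of 0.12 and a library median of -0.16. For cholesterol and fatty acid synthesis genes these were 0.02 and -0.26. Of 1771 values of 77 genes 1745 moved by less than 1 SD, 24 moved further and 2 reversed. A gene was called reversed only where its main log2 ratio was at least 1 either way. Sign changes of smaller ratios were not counted as such. As medians over libraries, Cd34 (0.03) was -0.26 and Flt3 (0.05) was -0.37. The count of genes at least 2-fold lower (155) was the least stable. It was 299 with the top 5% of the score, 24 with the top 20%, 91 with equal weight per cell, 46 with 10 CPM added, 408 with no level filter, 53 at a log2 level of 6, 538 as the median over libraries and 44 with gate and score applied after thinning. The count at least 2-fold higher (605) was 1251 with no filter and 257 at a log2 level of 6. The median of mitotic kinases (4.16) was 2.33 with 10 CPM added. The histone median (2.02) was 0.68 at a log2 level of 6 and 0.81 after gating on thinned counts. The erythroid median (3.46) was 0.49 as the median over libraries and 0.14 without marked cells. The neutrophil median (3.49) was 1.93 against all other gated cells, 0.00 over libraries, 0.35 without marked cells, 1.82 without the libraries Lib52, Lib54, Lib55 and Lib116, and 1.69 after gating on thinned counts. Scd1, at 3.10, was -0.74 without marked cells and -0.091 after gating on thinned counts. The cause of these shifts was not tested, except that a higher pseudocount and other level filters act by construction. Leaving out marked cells, leaving out those 4 libraries and gating after thinning were chosen after seeing the data. Gating on thinned counts kept 2415 cells and gave 268 members, 180 of them shared; dropping 1 score gene kept 286 to 294 of the 318. Depth limits the gate itself, since a cell with few counts can miss Procr, Mecom or Hlf.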

Other observations

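Several lineage and tissue genes that stood high in the summed counts of G2/M cells came almost wholly from 1 or 2 cells; they were chosen after their values were seen. The basophil protease genes Mcpt8 and Prss34 stood at 56.4 and 37.3 CPM in G2/M cells, against 0.24 and 0.10 CPM in low-score cells. For each of the pair, over 96% of the counts lay in 1 cell of library Lib55 (96.4% for Mcpt8 and 96.6% for Prss34). The skeletal muscle genes Acta1, Myh4, Ckm, Tnnt3, Pvalb and Myl1 stood at 44.1, 33.9, 20.2, 28.0, 23.3 and 16.4 CPM in G2/M cells. In low-score cells they stood at 7.66, 3.59, 1.43, 3.20, 2.98 and 2.34 CPM. Between 76.6% (Myl1) and 94.8% (Ckm) of their counts in G2/M cells lay in 2 cells. The fat cell gene Cfd had 98.1% of its counts in G2/M cells in 1 cell of Lib115, and Scd1, of fatty acid synthesis, had 88.7% in 1 cell.

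Adhesion and homing genes had a median of -0.02 over 22 genes and differed among themselves. The junction genes Jam3 and Jam2 had log2 ratios of -1.54 and -1.39, with 6.70 and 6.39 CPM in G2/M cells, against 21.4 and 18.4 CPM in low-score cells. Cxcr4, the chemokine receptor that holds stem cells in marrow, stood at 19.5 CPM in G2/M cells and 4.75 CPM in low-score cells, and without lineage-marked cells at 8.21 CPM in G2/M cells and 4.69 CPM in low-score cells. Vcam1 had a ratio of 1.08 with those cells and -0.80 without them.

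In the list of cytokine receptors, which also holds the chemokine receptor Cxcr4, 2 of 17 genes were at least 2-fold higher in G2/M cells. Of all tested genes 7.67% were. The pair was Epor at 2.19 and Cxcr4 at 1.83, and without lineage-marked cells their ratios were 1.58 and 0.69. No gene of the list was at least 2-fold lower. The median was -0.16. Casp6, an executioner caspase, was the lowest of the apoptosis genes at -0.77, with 56.1 CPM in G2/M cells and 96.0 CPM in low-score cells.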
